A study of Mus musculus with 6 samples.

Results

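The transcript make-up of multi-isoform genes was compared between jejunum enteroids that over-express PLAGL2, a zinc finger transcription factor, and a GFP control line. The members were 7675 of the 29813 genes of the transcript table. They were the genes with 2 or more listed transcripts whose transcript RPKM (reads scaled to transcript length and to library depth) added up to at least 2 in all 6 libraries. Each transcript's share is its RPKM as a percentage of that sum, so a share leaves the gene's total out. Enteroids are epithelial cultures grown from intestinal crypts, here of C57BL/6 mice, in serum-free ENR medium. All lines, the control included, had been transfected with a piggyBac transposon vector that inserts into chromosomes and drives its cargo, GFP or PLAGL2, constitutively. The libraries were polyadenylated RNA of 1 GFP line, of PLAGL2 clone 1, labelled low for PLAGL2, and of PLAGL2 clone 3, labelled high, each at passage 5 and passage 7. Both libraries of a line came from a single transfected culture, so p-values measure the spread between passages and between the 2 clones, and a peculiarity of the single GFP line cannot be told apart from an effect of PLAGL2.

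A gene gives several transcripts through alternative promoters, alternative splicing and alternative polyadenylation sites. Splicing choices are set by RNA-binding proteins, among them the epithelial regulators Esrp1 and Esrp2, and many alternative exons add or remove a short stretch of a protein without changing how much RNA the gene makes. Other annotated transcripts keep an intron or carry an early stop codon and are degraded by nonsense-mediated decay, so that they make little or no protein.

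The targeted gene, Plagl2, was at 22.8 and 23.1 RPKM in GFP, 30.9 and 26.5 in clone 1 and 37.2 and 37.2 in clone 3 in the gene table, so that all PLAGL2 libraries were above both GFP libraries. In the transcript table its sum overlapped between clone 1 and GFP, as given at the end. Depth, recovered from the steps between RPKM values of the gene table, was 13779306 to 17319950 reads per library. All 13 epithelial markers, such as Epcam, Cdh1, Vil1 and Muc2, were at an RPKM of 1 or more in all libraries, with a summed level of 4530 to 4820 in GFP and 4020 to 5050 with PLAGL2. Of 14 markers of other cells, Cdh5, Col3a1 and Dcn were listed at 0 in all libraries and 10, these included, were under an RPKM of 1 in all libraries. Vim, at 5.06 to 9.86, Cd68, at 2.67 to 5.91, and Lyve1, at 3.08 to 4.3, were above 1 in all libraries. Acta2 reached 1.06 in clone 1 at passage 7. The summed level of the 14 was 13.3 to 18.2 in GFP and 13.5 to 19.7 with PLAGL2. Lineage markers among the epithelial ones differed between the lines: the RPKM of Muc2, the goblet cell mucin, was 112 and 81.1 in GFP, 52.5 and 46.9 in clone 1 and 25.6 and 25.8 in clone 3. Lyz1, the Paneth cell lysozyme, was at 704 and 740 in GFP, 550 and 636 in clone 1 and 198 and 284 in clone 3. Over the lineage list, totals ranged from 0.387 (Muc2) to 5.78 (Lct, lactase) times GFP, and the part of such differences in the shares was not tested. In these bulk samples a different mixture of cells and a different isoform choice within each cell cannot be told apart.

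No transcript's share passed the test between both PLAGL2 clones and GFP, which does not show that shares were equal. The test was limma-trend, two-sided, on log2 of the transcript's RPKM over that of the gene's other transcripts, with 0.25 RPKM added to both, over 28244 transcripts of 7252 genes whose mean share was 5 to 95%. It called 0 transcripts at an adjusted p under 0.05 (0% higher and 0% lower), and the smallest adjusted p was 0.209, that of Enpp5-001. At an unadjusted p under 0.05 it counted 1439 transcripts (5.09%), 778 with a higher share with PLAGL2 (2.75%) and 661 with a lower one (2.34%). A different tool, limma's diffSplice, which compares each transcript with the rest of its gene using 1 spread per gene, called 73 transcripts in 63 genes, 53 higher and 20 lower. Without the GFP library of passage 5 or that of passage 7, limma-trend called 6 transcripts each time, all 6 higher in the former case, and 5 higher and 1 lower in the latter.

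The clones differed from GFP by about as much as a line differed from itself 2 passages later. Between passages 5 and 7 the share of the median transcript moved by 3.29 percentage points in GFP, by 3.22 in clone 1 and by 3.37 in clone 3. At the same passage the median distance of clone 1 from GFP was 3.02 points at passage 5 and 3.17 at passage 7. The distance of clone 3 from GFP was 3.07 and 3.46 points, and that between the clones was 3.04 and 3.35. Differences of 10 points or more were found for 14.6 to 14.8% of transcripts between passages of a line and for 13.6 to 15.3% between a clone and GFP.

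**Figure D1:**
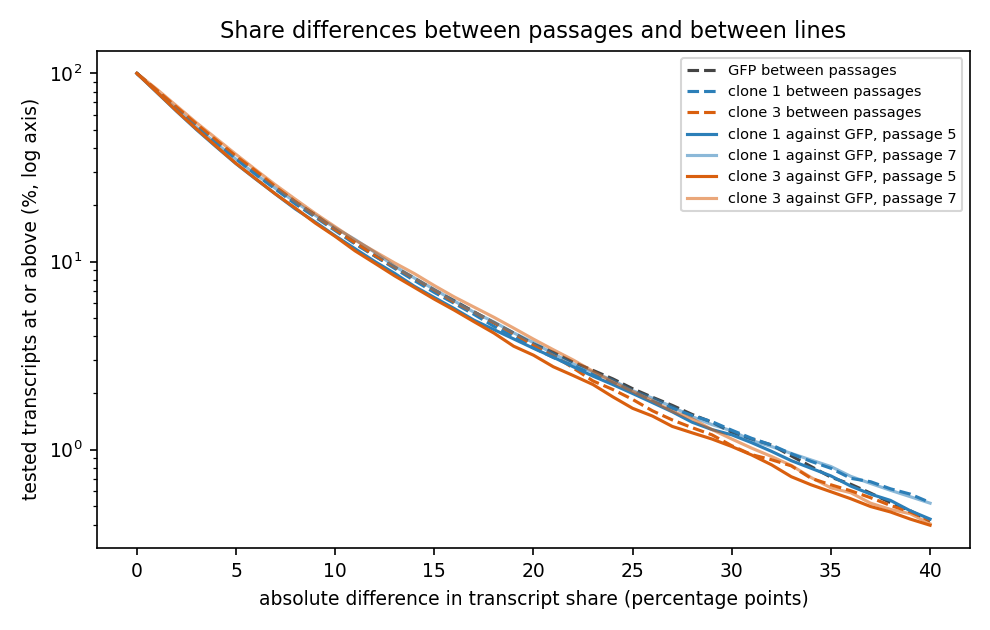
The horizontal axis is the absolute difference in transcript share in percentage points, and the vertical axis, which is logarithmic, is the percentage of the 28244 tested transcripts with at least that difference. Dashed lines compare passages 5 and 7 of 1 line and solid lines compare a clone with GFP at the same passage; the lines lie close together, at 13.6 to 15.3% for 10 points.

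Most genes kept the same leading transcript, the one with the largest share. It was the same in all 6 libraries for 5472 of 7675 genes (71.3%). Within a line, 1107 genes of GFP, 1095 of clone 1 and 1139 of clone 3 had different leading transcripts at passages 5 and 7. A switch in which both GFP libraries shared a leader and all 4 PLAGL2 libraries shared another was listed for 36 genes (0.469%), and 34 of them had a total within 1.5-fold. The make-up by transcript class was alike too. Protein-coding transcripts held 67.0 and 67.8% of the summed RPKM in GFP and 66.5 to 67.8% with PLAGL2. Transcripts with a retained intron held 13 and 13.5% in GFP and 13.1 to 14.0% with PLAGL2, and those marked for nonsense-mediated decay held 4.77 and 4.79% in GFP and 4.67 to 4.78% with PLAGL2.

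Alternative coding exons were examined next. Inclusion is the summed RPKM of the listed transcripts that hold an internal exon, as a percentage of these plus the transcripts with an intron across it. The measure was chosen after the transcript results were seen. Of 7450 such exons in 3510 genes, 4963 were coding. limma-trend called 0 exons at an adjusted p under 0.05 (0%), with 388 at an unadjusted p under 0.05 (5.21%) and a smallest adjusted p of 0.222. For 340 exons (4.56%) the 4 PLAGL2 values lay on one side of both GFP values with means 10 points or more apart, 160 higher (2.15%) and 180 lower (2.42%). Without the GFP library of passage 5 there were 990 such exons, without that of passage 7 there were 1011, and without the passage 5 library of clone 1 there were 515. With fewer libraries non-overlap is easier to reach, so these rises do not single out a library. The median exon moved by 4.66 to 5.02 points between passages of a line and by 4.63 to 5.02 points between a clone and GFP at the same passage.

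The coding exons with the widest gaps, in genes with 300 or more recovered reads in every library and a total within 1.5-fold, included those of Eya3, Dip2c, Mms19, Mapkapk5, Vps16, Mbnl3, Osbpl9, Wnk1, Zfand5, Dbf4 and Camsap1. In all, 141 coding exons of 113 genes met these limits. Among the exons described next, that of Mbnl3 is held by 2 transcripts and lacked by 3, and that of Wnk1 is held by 4 and lacked by 2. For each of the others a single listed transcript holds or lacks the exon, so its inclusion rests on that model. Sequences are shown for 7 of these exons, so that the stretch gained or lost can be read. They are given 5′ to 3′ on the transcript from the GENCODE M21 transcripts of the GRCm38 (mm10) build, with the exon in capitals and up to 12 neighbouring coding bases in lower case.
Eya3, 115 bases, chr4:132709945-132710059, plus strand: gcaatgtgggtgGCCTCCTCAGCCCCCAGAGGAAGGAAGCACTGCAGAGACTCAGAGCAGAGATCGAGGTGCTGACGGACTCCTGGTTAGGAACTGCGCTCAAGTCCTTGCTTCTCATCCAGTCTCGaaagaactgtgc
Dip2c, 17 bases, chr13:9584005-9584021, plus strand: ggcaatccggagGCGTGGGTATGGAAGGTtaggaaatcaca
Dip2c, 15 bases, chr13:9592744-9592758, plus strand: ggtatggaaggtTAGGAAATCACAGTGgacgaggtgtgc
Mms19, 75 bases, chr19:41963863-41963937, minus strand: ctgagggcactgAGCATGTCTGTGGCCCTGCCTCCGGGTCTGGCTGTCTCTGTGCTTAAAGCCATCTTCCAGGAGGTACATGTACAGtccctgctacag
Mapkapk5, 116 bases, chr5:121526745-121526860, minus strand: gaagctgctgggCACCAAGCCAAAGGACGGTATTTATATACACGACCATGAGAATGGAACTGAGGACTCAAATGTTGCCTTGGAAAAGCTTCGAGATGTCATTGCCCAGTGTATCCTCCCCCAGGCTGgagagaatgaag
Mbnl3, 36 bases, chrX:51126126-51126161, minus strand: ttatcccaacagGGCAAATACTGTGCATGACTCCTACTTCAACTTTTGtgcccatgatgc
Osbpl9, 51 bases, chr4:109172274-109172324, minus strand: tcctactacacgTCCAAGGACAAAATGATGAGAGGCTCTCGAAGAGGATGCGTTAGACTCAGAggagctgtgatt

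Mms19, which helps to place iron-sulfur clusters in DNA repair enzymes, had its 75-base exon at 85.1 and 70.0% in GFP, and 100% in all 4 PLAGL2 libraries (log2 ratio change 3.30, SE 0.55, limma adjusted p = 0.427). Mms19-008, the transcript that lacks the exon, was listed at 0 in those 4 libraries. Dbf4, the activator of the Cdc7 kinase that fires replication origins, had its 125-base exon at 65.6 and 69.5% in GFP, 54.9 and 45.5% in clone 1 and 47.9 and 54.6% in clone 3. Its groups did not overlap (log2 ratio change -0.99, SE 0.23, limma adjusted p = 0.875).

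Eya3, a transcriptional coactivator with phosphatase activity, had its 115-base exon at 89.7 and 94.3% in GFP, 70.6 and 73.9% in clone 1 and 65.7 and 70.3% in clone 3. This was the widest gap among these exons, at 15.8 points, with 1153 or more reads of the gene per library (log2 ratio change -2.11, SE 0.31, limma adjusted p = 0.35). Mapkapk5, a kinase activated by MAP kinases, had its 116-base exon at 29.9 and 22.0% in GFP, 53.9 and 43.4% in clone 1 and 44.5 and 51.8% in clone 3. Inclusion was thus higher in every PLAGL2 library (log2 ratio change 1.37, SE 0.27, limma adjusted p = 0.721). Wnk1, a kinase that controls ion cotransporters, was the best covered of these genes, with 8306 or more reads. Its 285-base exon was at 73.7 and 68.7% in GFP, 86.1 and 88.9% in clone 1 and 85.9 and 85.0% in clone 3 (log2 ratio change 1.31, SE 0.27, limma adjusted p = 0.789).

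Mbnl3 encodes an RNA-binding protein of the muscleblind family, which itself regulates splicing. Its 36-base exon was at 25.9 and 26.4% in GFP, 13.1 and 14.1% in clone 1 and 8.53 and 9.82% in clone 3. Passages of a line were 2 points or less apart and the clones lay in the order of their labelled PLAGL2 level, but the clones also differ in everything else that separates 2 clones (log2 ratio change -1.36, SE 0.27, limma adjusted p = 0.721). Of the 2 transcripts that hold the exon, Mbnl3-005 is a processed transcript model with 0 coding bases and 0 bases that other listed transcripts lack. Its share was 18.2 and 18.2% in GFP, 8.42 and 7.86% in clone 1 and 3.0 and 7.27% in clone 3. The gene's summed RPKM was 23.8 and 29.4 in GFP, 21.9 and 29.4 in clone 1 and 18.8 and 19.2 in clone 3, a ratio of means of 0.839.

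The 51-base exon of Osbpl9, a lipid transfer protein, was at 70.9 and 64.2% in GFP, 89.4 and 82.3% in clone 1 and 83.0 and 90.8% in clone 3. The 2 exons of Vps16, a subunit of tethering complexes of late endosomes, had the same values, 74.3 and 71.2% in GFP, 92.9 and 100% in clone 1 and 100 and 86.2% in clone 3, because 1 transcript, Vps16-002, lacks both. Inclusion was higher in all PLAGL2 libraries in both genes. Camsap1, which binds the minus ends of microtubules, had its 116-base exon at 95.6 and 86.1% in GFP, 72.2 and 72.1% in clone 1 and 75.7 and 47.7% in clone 3, the last value well below the other PLAGL2 values. The exon of Zfand5, an activator of the proteasome, was at 95.2 and 94.5% in GFP, 82.2 and 70.5% in clone 1 and 83.3 and 81.9% in clone 3. In Dip2c the 17-base and 15-base exons are held by Dip2c-201 alone, and both were at 16.4 and 21.8% in GFP, 1.39 and 0% in clone 1 and 0 and 0% in clone 3.

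**Figure D2:**
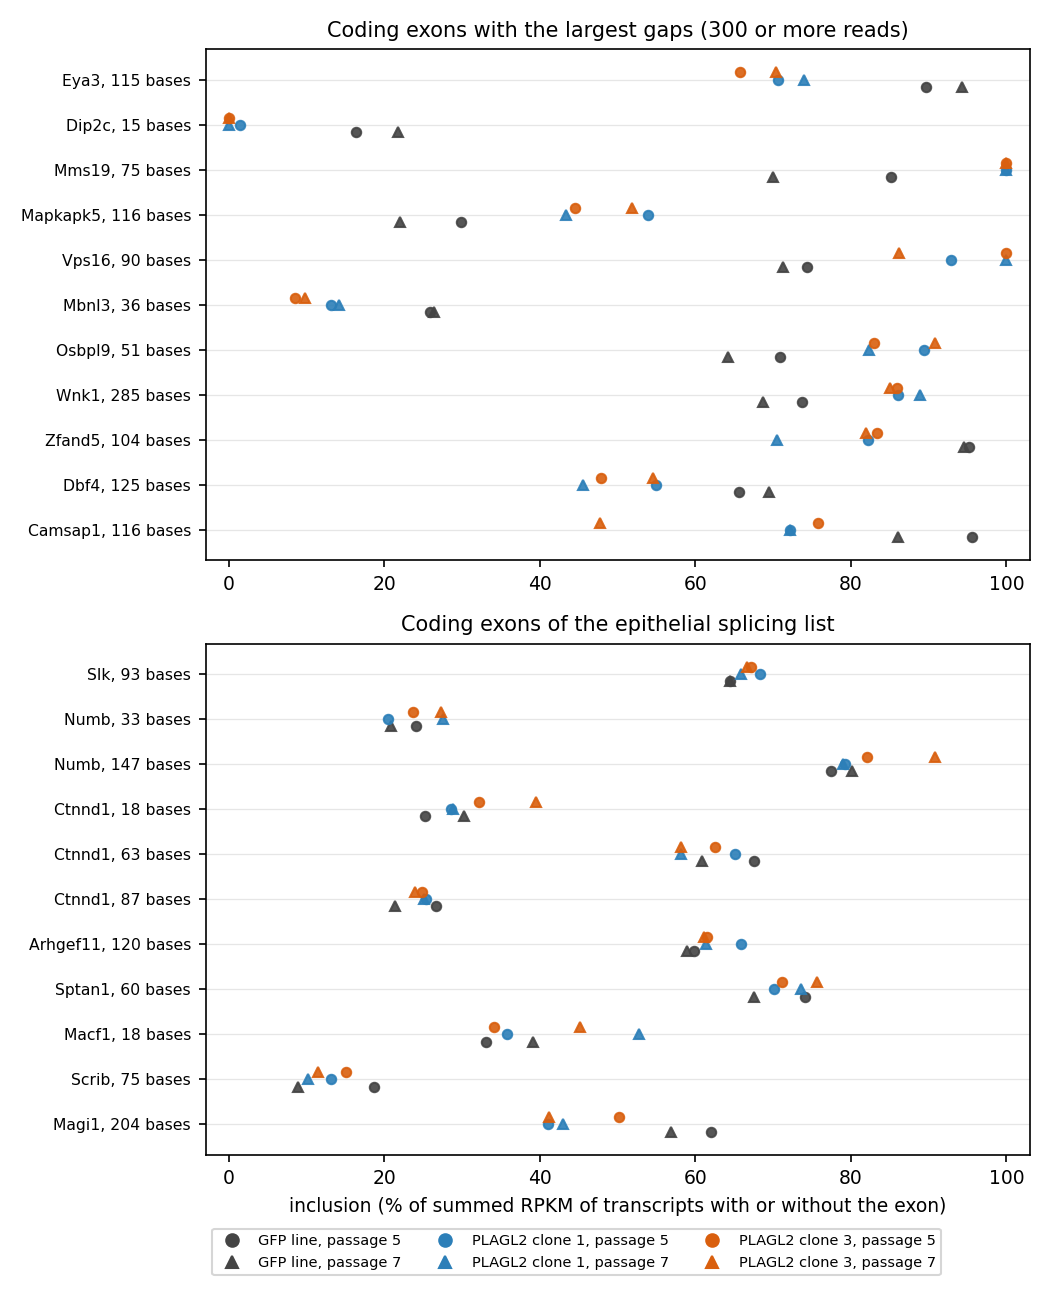
Each point is the inclusion of a coding exon in 1 library, in percent of the summed RPKM of the transcripts with or without it; circles are passage 5, triangles passage 7, and colours are the 3 lines. In the upper panel, which shows the exons picked for the widest gaps, the GFP points stand apart, as for Eya3 at 89.7 and 94.3% against 65.7 to 73.9%. The lower panel shows a chosen part of the exons of the epithelial splicing list, without the separated exon of Cd44. There the groups mostly overlap, as for Numb (33 bases) at 20.9 and 24% against 20.5 to 27.5%.

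Coding exons of genes known for epithelial splicing mostly overlapped between the groups. The list of 22 such genes, targets of Esrp1 and Esrp2 or genes with exons that differ between epithelium and mesenchyme, gave 60 alternative coding exons in 17 genes. These are all alternative coding exons of the genes, not only the ones known to be regulated. Of these 60, 5 had an unadjusted p under 0.05 with limma-trend, beside 388 of all 7450 exons (5.21%). In Cd44 and Magi1, 3 were separated by 10 points or more, beside 340 of all 7450 (4.56%). Slk, a kinase of the cytoskeleton, had its 93-base exon at 64.5 and 64.5% in GFP, 68.3 and 65.9% in clone 1 and 67.1 and 66.6% in clone 3. The PLAGL2 values were the higher ones, with a gap of 1.36 points between the groups.
Slk, 93 bases, chr19:47627648-47627740, plus strand: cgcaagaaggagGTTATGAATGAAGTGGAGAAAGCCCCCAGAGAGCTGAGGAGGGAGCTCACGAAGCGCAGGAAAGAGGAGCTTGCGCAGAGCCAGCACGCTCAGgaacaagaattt

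Numb, an inhibitor of Notch, has an alternative exon in its phosphotyrosine-binding domain and another in its proline-rich region. The former, of 33 bases, was at 24 and 20.9% in GFP, 20.5 and 27.5% in clone 1 and 23.7 and 27.3% in clone 3, so the groups overlapped. The latter, of 147 bases, was at 77.4 and 80.2% in GFP, 79.3 and 79.0% in clone 1 and 82.1 and 90.8% in clone 3, and they overlapped as well. Ctnnd1, the catenin p120 of adherens junctions, had its 63-base exon at 67.5 and 60.8% in GFP, 65.1 and 58.2% in clone 1 and 62.5 and 58.1% in clone 3, with overlap. Magi1, a scaffold of tight junctions, was the member that stood apart in several exons, all decided by its transcript Magi1-201. Its 204-base exon was at 62.0 and 56.9% in GFP, 41 and 43.0% in clone 1 and 50.2 and 41.1% in clone 3 (log2 ratio change -0.75, SE 0.20, limma adjusted p = 0.938). The variable 114-base exon of Cd44, a hyaluronan receptor of crypt cells, was at 41.4 and 37.3% in GFP, 36.4 and 33% in clone 1, and 36.5 and 0% in clone 3, so that it was a listed 0 at passage 7 that widened its difference.

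At the level of whole transcripts, 3766 of the 28244 (13.3%) had all 4 PLAGL2 shares on one side of both GFP shares. A random order of the libraries gives such a split about as often, so the count alone does not show a difference. With means 10 points or more apart there were 725 (2.57%), of which 323 were higher with PLAGL2 (1.14%) and 402 lower (1.42%), in 555 of 7252 genes (7.65%). In 503 genes (6.94%) the ratio of mean totals was also within 1.5-fold, and these are called separated in share and not in total. Overlap of the totals was not required, so a total in this set can still lie apart between the groups. For Znrf2 the summed RPKM was at most 16.4 in GFP and 19.6 to 23.3 with PLAGL2, a ratio of 1.33. Without the GFP library of passage 5 the count of genes in this set was 1416, and without that of passage 7 it was 1261. Non-overlap is easier to reach against a single GFP library, so these rises do not single out a library. Just inside the 10-point limit were Ambra1-006, at 10 points, and Rtel1-021, at -10 points. Just outside were Ccnd3-006, at 9.96 points, and Hace1-001, at -9.95 points.

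The separated genes were mostly of low level. Their median summed RPKM was 9.85, against 19.1 for all 7252 genes, and their median number of reads in the shallowest library was 328, against 662. Of genes with a mean sum of 2 to 5 RPKM, 88 of 630 were separated (14.0%), and of those at 50 or more, 10 of 1286 (0.778%). Transcripts listed at 0 in a library made up 182 of the 651 separated transcripts (28.0%) and 2924 of all 28244 (10.4%). By class, 455 of 15133 protein-coding transcripts were separated (3.01%), 60 of 6991 with a retained intron (0.858%), 85 of 4312 processed transcripts (1.97%) and 51 of 1757 marked for nonsense-mediated decay (2.90%).

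**Figure D3:**
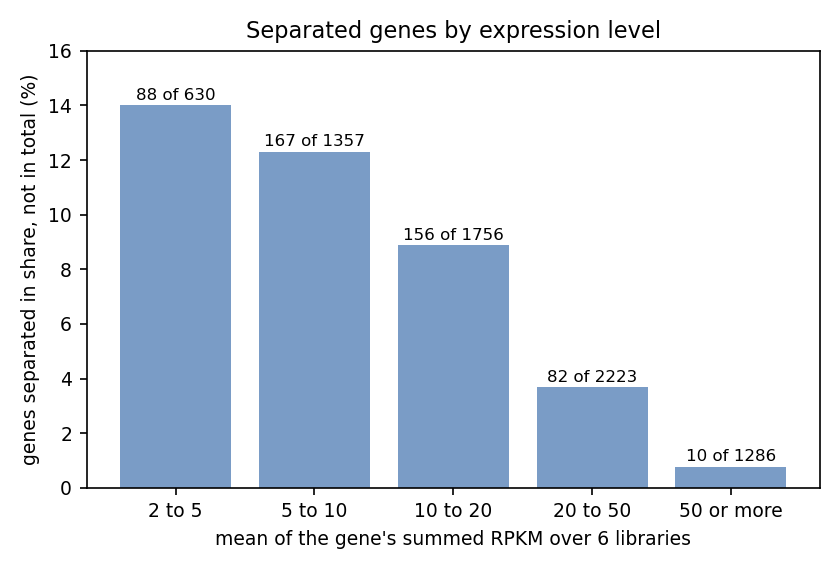
Bars show the percentage of genes separated in share with a ratio of mean totals within 1.5-fold. Genes are grouped by the mean of their summed RPKM over 6 libraries, with the number of genes above each bar. The percentage goes down from 14.0% (88 of 630) at 2 to 5 RPKM to 0.778% (10 of 1286) at 50 or more.

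In each separated gene, the separated transcript with the widest gap was set beside the one that moved most in the other direction. Both were in the annotation for 496 genes. These pairs had first exons that did not overlap in 239 genes (48.2%) and last exons that did not overlap in 209 (42.1%). For all genes, separated ones included, the pair was picked by another rule, from the transcript with the largest difference of mean shares. Over the 7154 genes with such a pair the figures were 4098 (57.3%) and 3905 (54.6%). Both transcripts had an annotated coding sequence in 290 of the 496 pairs (58.5%), and it was the same in 61 (12.3%), against 3357 (46.9%) and 634 (8.86%) of all 7154.

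The 24 transcripts with the widest gaps were followed in each library. Enpp5, of the ectonucleotide pyrophosphatase family, has Enpp5-001 and Enpp5-002 with a coding length of 1431 bases each (chr17:44078813-44086567 for the former), and only 32 bases of Enpp5-001 are in no other listed transcript. Enpp5-001 was at 27.5 and 39.0% in GFP and listed at 0 in all 4 PLAGL2 libraries. Enpp5-002 was at 59.2 and 45.2% in GFP, 86.0 and 86.0% in clone 1 and 86.2 and 82.2% in clone 3. The groups did not overlap for either, in a gene with 360 to 519 reads (Enpp5-001, limma adjusted p = 0.209, range over the alternatives 2.28e-06 to 0.702).

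Golga7b, a partner of palmitoylating enzymes, has 2 listed transcripts of the same coding length, 501 bases, with first exons that start 8165 bases apart. Golga7b-002 was at 67.9 and 65.7% in GFP, 0 and 26.4% in clone 1 and 0 and 38.5% in clone 3. The other transcript, Golga7b-001, held the rest and led in all PLAGL2 libraries, in a gene with 129 to 185 reads. Mfap3, a microfibril-associated protein, had Mfap3-001 at 37.0 and 34.6% in GFP, 60.6 and 75% in clone 1 and 64.4 and 75.4% in clone 3. All PLAGL2 shares were above both GFP shares, in a gene with 694 or more reads (log2 ratio change 1.90, SE 0.32, limma adjusted p = 0.645). Mnx1, a homeobox transcription factor with a coding length of 1212 bases in both listed transcripts, had Mnx1-001 at 66.4 and 65.1% in GFP, 34.8 and 45.1% in clone 1 and 43.0 and 33.7% in clone 3. Its other transcript, Mnx1-201, was the leader in all 4 PLAGL2 libraries.

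Zfp217, a zinc finger transcription factor, was among the better covered genes, with 1213 to 1504 reads. Zfp217-001 was at 66.1 and 66.1% in GFP, 48.4 and 54.6% in clone 1 and 52.2 and 44.8% in clone 3. Zfp217-201, whose start lies 11458 bases away and whose coding length is the same, 3123 bases, was at 14.5 and 21.5% in GFP, 41.8 and 29.5% in clone 1 and 29.9 and 33.3% in clone 3. The groups were apart for both transcripts (Zfp217-001, log2 ratio change -0.92, SE 0.19, limma adjusted p = 0.801).

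Lif, a secreted cytokine of the interleukin 6 family, had Lif-001, a coding transcript of 4026 bases, at 24.2 and 28.1% in GFP, 41.6 and 45.5% in clone 1 and 45 and 41.6% in clone 3. The summed RPKM of the gene was 3.65 and 4.28 in GFP and 4.15 to 6.08 with PLAGL2, with 129 to 278 reads. The shares of the 4 PLAGL2 libraries were within 4 points of each other and apart from GFP (log2 ratio change 0.96, SE 0.15, limma adjusted p = 0.645). Rab3a, a GTPase of secretory vesicles, had Rab3a-001 listed at 0 in both GFP libraries and at 38.7, 24.4, 51.9 and 24.6% with PLAGL2. Rab3a-003, with the same coding length of 660 bases, was at 20.9 and 33.2% in GFP, and 0, 0, 0 and 28.3% with PLAGL2, so it overlapped. Sh3bp2, an adaptor of tyrosine kinase signalling, had Sh3bp2-201 at 1.86 and 3.91% in GFP, 57.5 and 28.5% in clone 1 and 20.2 and 25.8% in clone 3. The passage 5 library of clone 1 stood well above the other 3.

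Evl, an actin regulator of the Ena/VASP family, has a 63-base exon, a length that keeps the reading frame, that is present in Evl-201 and lacking in Evl-202.
Evl, 63 bases, chr12:108683348-108683410, plus strand: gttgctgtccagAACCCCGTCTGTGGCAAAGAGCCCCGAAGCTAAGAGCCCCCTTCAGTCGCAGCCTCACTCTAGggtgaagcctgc

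Evl-202 was listed at 0 in both GFP libraries and was at 18.8 and 21.0% in clone 1 and 12.2 and 13.1% in clone 3. Inclusion of the exon, over all transcripts, was 61.7 and 60.6% in GFP, 46.7 and 49.4% in clone 1 and 51.8 and 56.5% in clone 3. The groups did not overlap in either measure (exon, log2 ratio change -0.55, SE 0.20, limma adjusted p = 0.938). Exons of Evl overlap those of a neighbouring gene by 278 bases, and whether the counting used strand is not given in the sources used here.

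Pmm1, a phosphomannomutase of glycan synthesis, has a 77-base coding exon that Pmm1-002 skips. Its length alone would not keep the reading frame. Pmm1-002 differs from Pmm1-001 by more than this exon, with 606 coding bases against 786, and its frame was not examined.
Pmm1, 77 bases, chr15:81956362-81956438, minus strand: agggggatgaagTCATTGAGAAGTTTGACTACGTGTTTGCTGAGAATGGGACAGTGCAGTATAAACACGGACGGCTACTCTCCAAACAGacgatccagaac

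Pmm1-002 was at 17.7 and 21.5% in GFP, 0 and 0% in clone 1 and 5.26 and 0% in clone 3, and inclusion of the exon was 78.2 and 71.9% in GFP and 100, 100, 92.8 and 100% with PLAGL2. The groups did not overlap, in a gene with 203 to 292 reads. Ndufaf1, an assembly factor of respiratory complex I, had Ndufaf1-002 at 60.7 and 66.5% in GFP, 40.1 and 47.7% in clone 1 and 37.5 and 42.2% in clone 3. Pfkfb1, a bifunctional enzyme that sets the level of fructose bisphosphate, had Pfkfb1-001 listed at 0 in GFP, and 29.7, 35.0, 28.7 and 16.2% with PLAGL2, in a gene with 72 to 102 reads. Apip, an enzyme of methionine salvage, had Apip-002 at 12.3 and 22.2% in GFP and listed at 0 in all PLAGL2 libraries, with 83 to 124 reads.

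Rad1, a subunit of the checkpoint clamp, had Rad1-006, which is marked for nonsense-mediated decay, at 22.8 and 14.2% in GFP, 46.4 and 38.3% in clone 1 and 43.0 and 39.1% in clone 3. Rad1-001, its coding partner of 840 coding bases, was at 23.3 and 34.7% in GFP, 4.16 and 6.81% in clone 1 and 3.44 and 12.3% in clone 3. The 2 transcripts lay apart in opposite directions (Rad1-006, log2 ratio change 1.57, SE 0.26, limma adjusted p = 0.645, and 0.0332 with diffSplice). Wdr62, a spindle pole protein, had Wdr62-001 at 48.7 and 59.5% in GFP, 18.2 and 0% in clone 1 and 0 and 26.2% in clone 3. Wdr62-002, marked for decay, was listed at 0 in GFP and was at 23.7, 45.9, 40.9 and 19.4% with PLAGL2.

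Short or partial models made up several of the others. Znrf2, a ubiquitin ligase, was the best covered of the 24, with 1525 to 2178 reads. Znrf2-002, a model of 397 bases marked for decay with 25 bases of its own, was at 4 and 3.42% in GFP, 21.9 and 30.5% in clone 1 and 24.3 and 24.7% in clone 3. Znrf2-001, the coding transcript of 5886 bases, was at 64.9 and 63.8% in GFP and 49.0 to 53.8% with PLAGL2. Both were apart (Znrf2-002, log2 ratio change 2.69, SE 0.22, limma adjusted p = 0.248, range over the alternatives 1.84e-05 to 0.702). Hps4, a subunit of a complex that builds lysosome-related organelles, had Hps4-005, a retained intron model of 570 bases, at 2.45 and 0% in GFP and 18.7, 19.4, 20.5 and 21.8% with PLAGL2. Trim7, a ubiquitin ligase, had Trim7-004, of 320 bases, listed at 0 in GFP, and 16.7, 12.5, 23.5 and 17.6% with PLAGL2, in a gene with 82 to 134 reads. 
As the 24 were picked for their gaps in these same libraries, passing a test of the same groups is no separate support. With limma's diffSplice, 10 of the 24 passed an adjusted p of 0.05. Besides Enpp5-001, Znrf2-002 and Rad1-006, these were Dip2c-201 (2.49e-05), Hps4-005 (0.00196), Pmm1-002 (0.00232), Trim7-004 (0.00558), Rab3a-001 and Apip-002 (0.0176 each) and Wdr62-001 (0.0382), while none of the 24 passed with limma-trend.

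Of the remaining 6, 3 lay in genes with fewer than 100 reads in at least 1 library. Prss36-006, of a serine protease, was at 43.2 and 47.4% in GFP, 0 and 0% in clone 1 and 0 and 10.6% in clone 3, with 40 to 74 reads. Ccdc28b-001 was at 47.6 and 68.0% in GFP, 0 and 30.8% in clone 1 and 0 and 0% in clone 3, with 44 to 95 reads. Eps8l1-013, of an actin-linked signalling adaptor, was at 23.8 and 16.3% in GFP and listed at 0 in all PLAGL2 libraries, with 95 to 211 reads. All 3 had the higher share in GFP. Fhad1-201 was listed at 0 in GFP and was at 34.0 and 15% in clone 1 and 13.3 and 17.1% in clone 3. Sh3tc1-001 was at 13.5 and 2.76% in GFP, 46.2 and 25.8% in clone 1 and 38.7 and 66.6% in clone 3. Both had the higher share with PLAGL2, and Dip2c-201 is given above with its exons. Exons of another gene overlap those of Wdr62 by 264 bases, Ccdc28b by 173, Trim7 by 112, Sh3tc1 by 110, Dip2c by 92, Numb by 75 and Fhad1 by 41, and without strand their reads cannot be told apart.

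**Figure D4:**
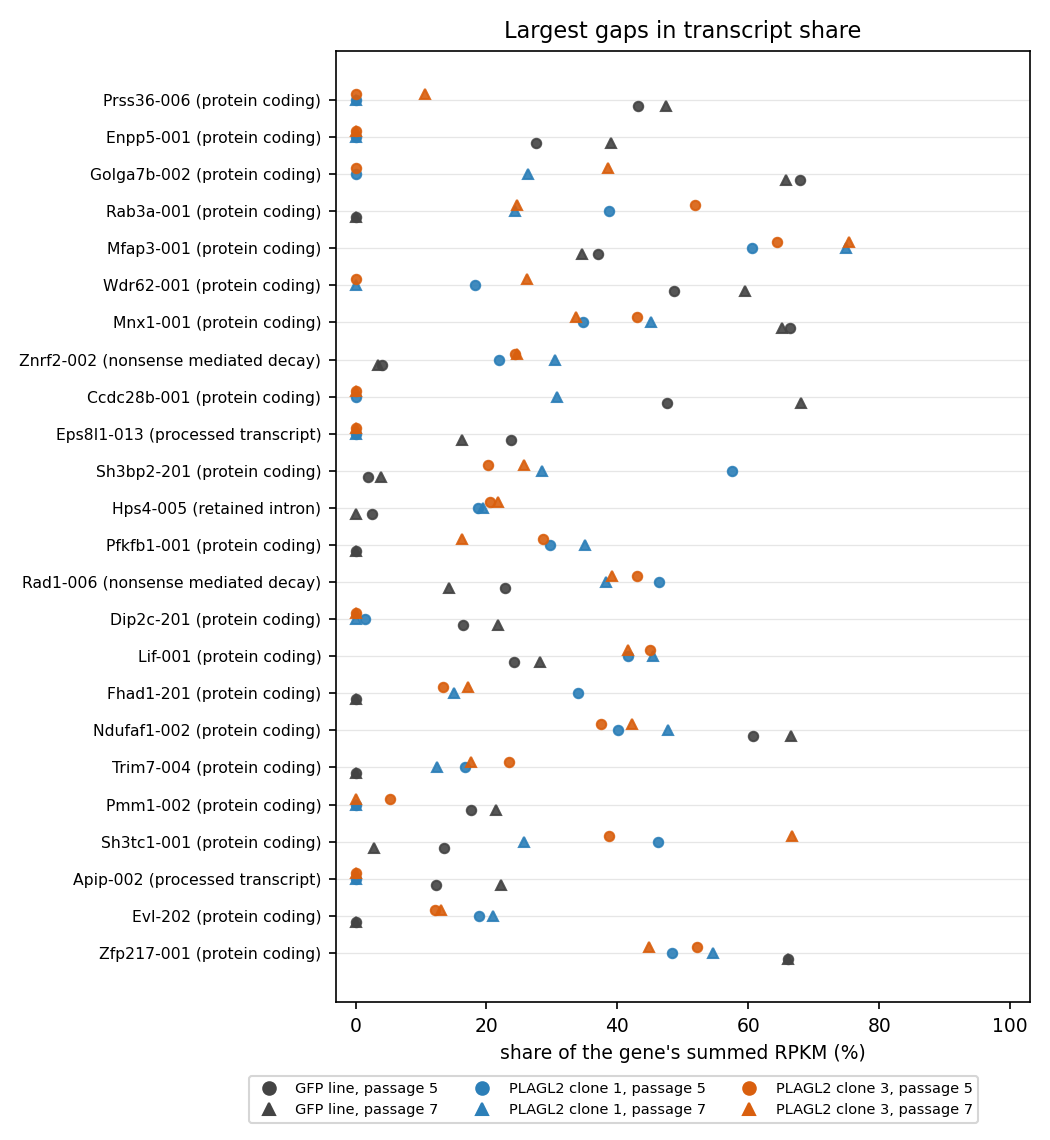
Each point is the share of a transcript in its gene's summed RPKM in 1 library, for the 24 transcripts with the widest gap; circles are passage 5, triangles passage 7, and colours are the 3 lines. The GFP points stand apart by construction, for example at 4 and 3.42% for Znrf2-002 against 21.9 to 30.5%, and many transcripts reach 0% in a library.

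The 36 genes whose leading transcript switched included genes with narrow gaps. Bcl2, an inhibitor of apoptosis, had Bcl2-001 at 52.3 and 51.6% in GFP, 41.6 and 44.2% in clone 1 and 46.1 and 48.4% in clone 3. The second transcript, Bcl2-002, took the lead with 51.6 to 58.4%, so that the switch rested on a gap of 3.21 points. Gca, a calcium-binding protein, had Gca-001 at 56.0 and 58.7% in GFP, 35.0 and 45.3% in clone 1 and 32.7 and 43.2% in clone 3. Dbf4-001 was at 38.0 and 40.1% in GFP, and 21.3 to 31.9% with PLAGL2, beside the exon values given above. S100a16, another calcium-binding protein, had S100a16-001 at 47.5 and 40.5% in GFP and 21.2 to 36.9% with PLAGL2, while S100a16-003, the new leader, overlapped.

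Splicing factors were at similar totals in both groups. Of 76 splicing factors 64 were in the set, with a median total of 1.00 times GFP and a range from 0.839 (Mbnl3) to 1.17 (Taf15). Of the 63 with a tested transcript 0 were called, 5 had a transcript with an unadjusted p under 0.05, as had 1110 of all 7252 genes (15.3%), and 2, Esrp2 and Mbnl3, were separated (3.17%, beside 6.94% of all genes). The median over the list of each gene's largest share difference was 2.58 points, against 4.31 for all genes. Separation was rarer at higher levels, as given above, and neither this list nor those below were matched to all genes by level.

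Esrp2, a splicing regulator particular to epithelia, had 1736 to 2158 reads. Esrp2-008, a processed transcript model of 276 bases with 29 of its own, was at 9.10 and 10% in GFP, 23.6 and 18.4% in clone 1 and 19.2 and 19.3% in clone 3. Esrp2-001, the coding transcript, was at 43.0 and 42.0% in GFP, 34.5 and 37.2% in clone 1 and 34.7 and 38.4% in clone 3. The shares of both lay apart. In RPKM, Esrp2-008 was at 4.98 and 6.09 in GFP, and 11.3 to 15.7 with PLAGL2, while Esrp2-001 was at 23.5 and 25.4 in GFP, 23 and 22.9 in clone 1 and 23.5 and 22.4 in clone 3. For the coding transcript the lower GFP level and the highest PLAGL2 level were thus alike, at 23.5, and the levels of the short model lay apart (Esrp2-008, log2 ratio change 1.21, SE 0.19, limma adjusted p = 0.645, range over the alternatives 0.0176 to 0.879). Esrp1, its close relative, had the coding transcript Esrp1-001 at 31.4 and 30.3% in GFP, 31.5 and 22.2% in clone 1 and 31.2 and 30.3% in clone 3, with overlap. Srsf3 controls its own level through a decay transcript, and that transcript, Srsf3-002, was at 42.1 and 39.3% in GFP and 39.4 to 45% with PLAGL2, again with overlap.

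In the list of RNA decay and exon junction factors, 2 of 11 tested genes were separated (18.2%, beside 6.94% of all genes) and 0 were called. Rnps1, a splicing activator of the exon junction complex, had Rnps1-202 at 70.8 and 67.7% in GFP, 60.8 and 59.9% in clone 1 and 63.1 and 52.1% in clone 3. All PLAGL2 shares were lower, with 1817 or more reads of the gene (log2 ratio change -0.64, SE 0.22, limma adjusted p = 0.965). Cleavage and polyadenylation factors had 0 of 13 genes separated, beside 6.94% of all genes, and 3 with an unadjusted p under 0.05, beside 15.3%.

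Of the actin cytoskeleton and junction genes, 0 of 22 were separated, beside 6.94% of all genes, and 2 had an unadjusted p under 0.05, beside 15.3%. The leading transcript of the E-cadherin gene, Cdh1-001, was at 83.2 and 85.9% in GFP, 85.7 and 82.9% in clone 1 and 83.9 and 84.0% in clone 3. Pkm, whose mutually exclusive exons give the M1 and M2 forms of pyruvate kinase, had Pkm-201 at 93.1 and 91.5% in GFP, 93 and 92.6% in clone 1 and 92.0 and 90.3% in clone 3. Both genes kept their make-up within 3 points across the libraries.

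In the Wnt and Notch pathway, 3 of 39 tested genes were separated, Axin1, Porcn and Psen2 (7.69%, beside 6.94% of all genes), 7 had an unadjusted p under 0.05, beside 15.3% of all genes, and 0 were called. Axin1, the scaffold of the complex that degrades beta-catenin, had Axin1-002 at 6.64 and 5.59% in GFP, 12.7 and 17.8% in clone 1 and 15 and 28.9% in clone 3. The 108-base alternative coding exon of Axin1 overlapped, at 41.6 and 37.6% in GFP, 35.1 and 39.8% in clone 1 and 36.8 and 40.8% in clone 3. Porcn, the enzyme that attaches a lipid to Wnt proteins, had Porcn-004 at 12 and 16.8% in GFP, 21.9 and 45.7% in clone 1 and 33.7 and 32.6% in clone 3, with 89 to 176 reads. Psen2, a catalytic subunit of gamma-secretase, which cleaves Notch, had Psen2-004 at 37.0 and 29.7% in GFP, 24.3 and 20.3% in clone 1 and 23.6 and 13.9% in clone 3. Beta-catenin itself had the coding transcript Ctnnb1-005 at 20.4 and 19.2% in GFP, and 16.1 to 24% with PLAGL2, with overlap.

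Numb was separated at the transcript level although its 2 alternative exons were not. Numb-007, marked for decay with 228 coding bases, was at 16.3 and 19.2% in GFP, 28.0 and 26.5% in clone 1 and 38.4 and 46.5% in clone 3. Numb-003, with 1926 coding bases, was at 32.5 and 36.7% in GFP, 26.5 and 20.7% in clone 1 and 16.5 and 14.4% in clone 3. Numb-007 led in all PLAGL2 libraries and Numb-003 in both GFP libraries, and clone 3 lay farther from GFP than clone 1 (Numb-007, log2 ratio change 1.25, SE 0.39, limma adjusted p = 0.965; clone 3 minus clone 1, 0.96, limma adjusted p = 0.983). The gene's sum was 35.3 and 30.4 RPKM in GFP and 31.4 to 33.9 with PLAGL2.

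Lineage genes held 1 separated member of 17 (5.88%, beside 6.94% of all genes), with 0 called. Of 25 chromatin genes, 1 was separated (4.0%, beside the same 6.94%), Hdac7, a histone deacetylase. Hdac7-007 was at 11.6 and 10% in GFP, 19.8 and 29.0% in clone 1 and 16.2 and 30.8% in clone 3, with a total 1.46 times that of GFP. PLAG family members and reported targets had 0 of 4 tested genes separated, beside 6.94% of all genes.

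Plagl2 itself has 2 listed transcripts with the same coding length, 1488 bases, and first exons that start 3518 bases apart. In the transcript table its sum was 14.4 and 14.6 RPKM in GFP, 15 and 13.8 in clone 1 and 18.1 and 17.5 in clone 3. Plagl2-002 was at 13.9 and 14.9% of the sum in GFP, 15.1 and 14.6% in clone 1 and 23.6 and 22.4% in clone 3. Clone 3 thus stood above both other lines in share, and clone 1 overlapped with GFP (clone 3 minus clone 1, log2 ratio 0.70, limma adjusted p = 0.993). What the transposon carried besides the coding sequence is not given in the sources used here. In the transcript table Me3, a malic enzyme, had a total 0.269 times that of GFP and was also separated in share, with Me3-003 at 96 and 94.7% in GFP and 80.7 to 86.1% with PLAGL2 (limma adjusted p = 0.356, and 0.0176 with diffSplice). The gene table gave Me3 only 0.0513 to 0.189 RPKM, from 13 to 38 reads, and exons of another gene overlap Me3-003 by 234 bases, so the transcript values of Me3 are uncertain.

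**Figure D5:**
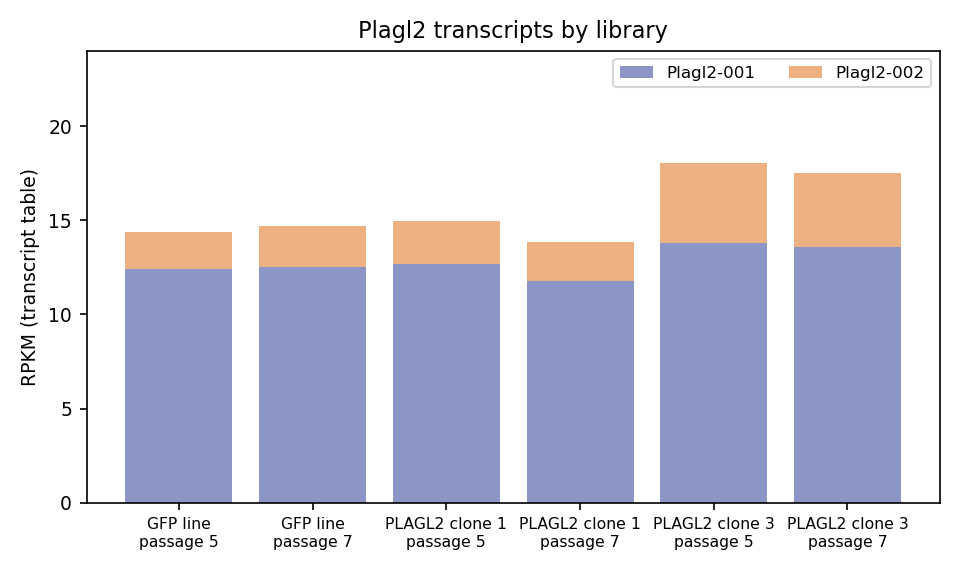
Stacked bars show the RPKM of the 2 Plagl2 transcripts in each library from the transcript table, starting at 0. Plagl2-002 makes up 13.9 to 15.1% of the sum in the GFP and clone 1 libraries and 22.4 and 23.6% in clone 3.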

How the data were processed

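The authors deposited RPKM values per gene and per transcript, with a column for each library. Genome build mm10 and the tools STAR, Subread, featureCounts and edgeR were named, per the submitters' processing notes. The tools' versions and roles, and how reads were shared between transcripts, were not given in the sources used here. Of 86210 transcript entries, 1557 repeats of an identifier were dropped. Depth and reads per gene were recovered from the steps of the gene table. Between 67.0 and 67.4% of nonzero genes came out within 0.02 of a whole read, so read numbers are approximate, and no count test was run. Shares were tested with limma 3.58.1 in R 4.3.3, with Benjamini-Hochberg adjustment over all transcripts, and the fit was checked on simulated data. GENCODE M21 held 99.1% of the tested transcripts and gave structures and sequences. Named transcripts were the 24 widest gaps among genes separated in share and not in total (1 gene with a placeholder name was passed over), and separated members of the gene lists. Members and lists were chosen with earlier results of these data known. Exon inclusion, the exons shown, and the list members and switched genes described beside them were chosen after their values were seen. Alternatives were other pseudocounts, filters and transforms, diffSplice, a replicate block and each library left out. Some members are not reported here.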

Additional observations from a re-analysis of the deposited data

Results flagged for a closer look

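Among the 38 transcripts examined, 4 had a single PLAGL2 library whose share was not 0 while the other 3 were listed at 0. Chance flags about 1 in 20 groups for ordinary values, but that rate does not apply here, because with 3 equal values any remaining value is flagged whatever its size. Prss36-006 was at 10.6% in clone 3 at passage 7. Ccdc28b-001 was at 30.8% in clone 1 at passage 7. Dip2c-201 was at 1.39% in clone 1 at passage 5. Pmm1-002 was at 5.26% in clone 3 at passage 5.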

How the results depend on the processing

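No result reversed under the alternatives run. limma-trend called 0 transcripts under other pseudocounts, minimum sums of 1 and 5 RPKM, no filter on share and the arcsine transform, and diffSplice called 73 transcripts in 63 genes. With each library left out in turn, 0 to 6 transcripts in 0 to 6 genes were called, and 0 to 1 exons. Genes separated in share and not in total numbered 70 at 20 points, 269 with 300 or more reads per gene and library, a limit chosen after seeing the data, and 693 to 1416 with a library left out. Separated exons numbered 224 at a minimum sum of 5 RPKM and 472 to 1011 with a library left out. Non-overlap is easier to reach with fewer libraries, which by itself raises the separated counts with a library left out. With the passage as a replicate block, 0 transcripts were called, with a smallest adjusted p of 0.702, and 0 exons. Deviations of same-passage libraries correlated at 0.0145 to 0.0388 in share, so the passages were not taken as pairs. For log2 of the summed RPKM these correlations were 0.544 to 0.644, so the gene totals of the lines moved together between passages. Of the named transcripts, most of which were picked for their differences in these same libraries, 13 passed under diffSplice and not under limma-trend. Shares of genes with few reads are the least precise.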
